A study of Homo sapiens with 80 samples.

Results

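The comparison of 9 g for 3 min with 1 g rests on 12 of the 80 libraries of the series, 6 labelled hypg3 (libraries 69 to 74) and 6 labelled Ctrl (libraries 1 to 6). The libraries were chosen by their labels alone. All came from Jurkat T cells, clone E6-1, a human line grown from a single leukemia that serves as a model of T cells but divides without stimulation. For hypg3, cells in pipettes were spun at 9 g for 3 min after resting at 1 g for the remainder of a 15 min period. For Ctrl, cells in the same kind of pipette stayed at 1 g for all 15 min. Ribosomal RNA was depleted from total RNA and the RNA was sequenced with its strand kept, so that transcripts without a poly(A) tail were counted too. The question was which transcripts differed after minutes of raised gravitational load.

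Cells sense load through the actin cortex, integrins, stretch-gated channels and the links between cytoskeleton and nuclear lamina, and such inputs reach calcium, kinase and transcription factor signalling within minutes. Immediate early genes such as FOS and EGR1 are transcribed within minutes of a stimulus, and heat shock factors switch on chaperone genes when proteins unfold. The messenger RNAs of ribosomal proteins and most metabolic enzymes are long-lived, and their levels usually move slowly.

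The 12 libraries held between 23538676 and 36406463 counts. The groups did not differ detectably in total counts (two-sided exact permutation test, 6 against 6, adjusted p = 0.263), and the smallest p this design can give is 0.00216. The T cell identity of the libraries held by its markers: all 10 were found, and their summed level was 3523 to 3953 CPM in Ctrl and 3642 to 4010 CPM in hypg3. Of the 10 markers 3 were upregulated and 2 downregulated, where the shares over all genes tested were 16.9% and 24.4%. CPM is counts per 1000000 counts after scaling for library composition. Markers of other cells were low in both groups, with summed levels of 0.265 to 0.842 CPM for myeloid cells, 3.08 to 4.40 CPM for natural killer cells and at most 0.0883 CPM for erythroid cells, in which HBA2 and HBB were at 0. The B cell sum of 56.2 to 66.5 CPM came almost entirely from CD79A, and the fibroblast and epithelium sum of 5.01 to 7.66 CPM from COL1A1, while COL1A2 and DCN were at 0. Nothing in the sources used here says that the 6 libraries of a group came from separate cultures, so the p-values measure the spread between these samples, which may be technical. Libraries 69 to 80 form a number block of their own, which holds hypg3 and hypg15 and no control, so the block and the 3 min exposure cannot be told apart in the comparison with Ctrl.

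Library composition differed between the groups. The GC slope, which is the change of log2 level per 10 percentage points of gene GC content relative to the mean of Ctrl, had its lowest, median and highest value at -0.118, 0.017 and 0.0664 in Ctrl and at 0.0672, 0.225 and 0.32 in hypg3. All 6 hypg3 slopes lay above all 6 Ctrl slopes, by a narrow margin for library 71 (difference of means 0.216, exact permutation p = 0.00216, adjusted p = 0.00649). The share of counts on mitochondrial genes was 1.33%, 1.5% and 1.6% in Ctrl and 1.67%, 1.96% and 2.33% in hypg3, again without overlap (difference 0.506 percentage points, adjusted p = 0.00649). Histone genes took 3.53%, 3.81% and 3.98% of counts in Ctrl and 4.09%, 4.46% and 4.85% in hypg3, also without overlap (difference 0.679 percentage points, adjusted p = 0.00649). Ribosomal protein genes took 6.52%, 6.76% and 7.20% in Ctrl and 6.05%, 6.25% and 6.67% in hypg3, where the groups overlapped (difference -0.478 percentage points, adjusted p = 0.0244). The 6 libraries labelled Ctrl60, a control left at 1 g for 60 min whose column names also carry the word HEPES, had a median GC slope of 0.0501 and a median mitochondrial share of 1.28%. The 4 control libraries of a separate centrifuge experiment in the series had mitochondrial shares of 2.03% to 2.12%, inside the range of hypg3.

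**Figure D1:**
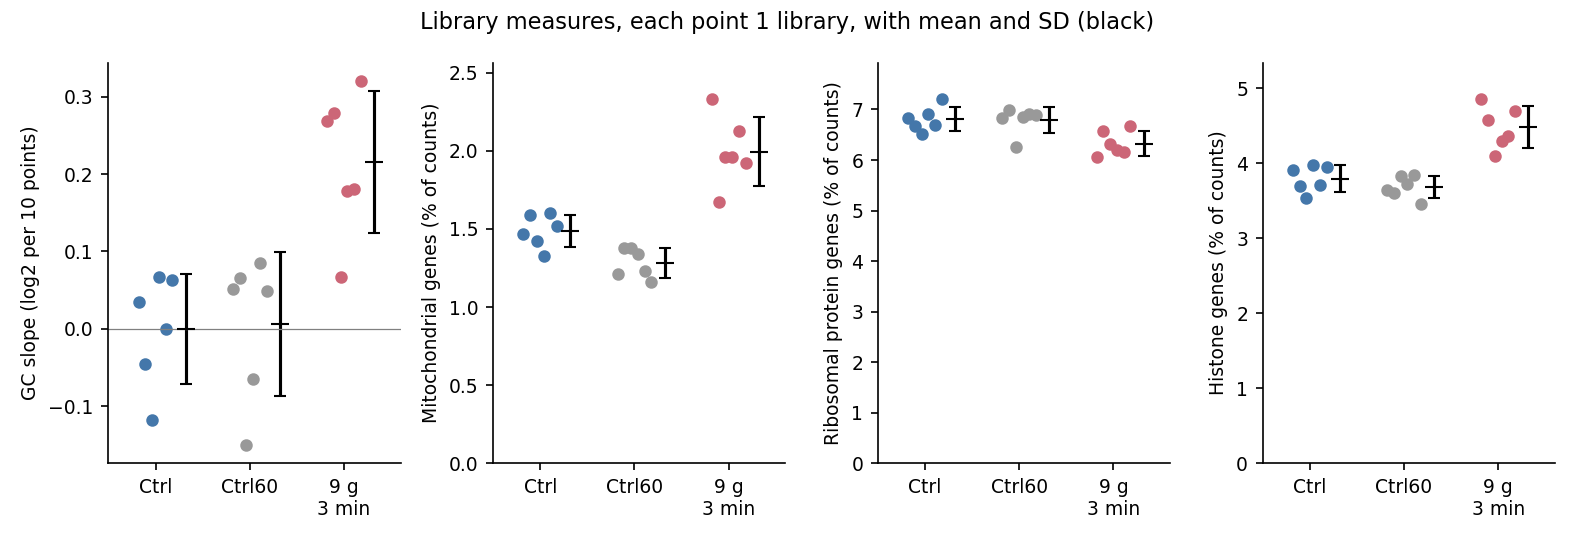
Measures of each library (points) in Ctrl, Ctrl60 and hypg3, with mean and SD in black: GC slope (log2 per 10 percentage points of GC), and the percent of counts on mitochondrial, ribosomal protein and histone genes. The hypg3 libraries lie above every Ctrl library in GC slope (0.0672 to 0.32 against -0.118 to 0.0664), mitochondrial share and histone share, and overlap Ctrl in ribosomal protein share.

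Of 16194 genes tested, 2740 (16.9%) were upregulated and 3945 (24.4%) downregulated at 3 min of 9 g, at an adjusted p under 0.05 in edgeR's quasi-likelihood test with Benjamini-Hochberg adjustment and with no limit on the fold change. Most differences were small. The median log2 fold change was 0.25 among upregulated and -0.39 among downregulated genes, and 2325 of the upregulated and 2717 of the downregulated genes moved by less than 0.5 on the log2 scale. Past 2-fold there were 17 upregulated and 15 downregulated genes, and of these MRPL1 and HSP90AA1 alone had a mean level of at least 10 CPM. In 1226 genes (7.57%) every hypg3 library lay above every Ctrl library, and in 2187 genes (13.5%) every one lay below. The balance of directions depended on the model: a correction for exon length gave 3752 upregulated and 2974 downregulated genes (55.8% up, against 41.0% as counted), and a single model of all 60 libraries of the 9 g experiment gave 2206 and 1851 (54.4% up). That model takes in library 75 of the 15 min group, which has no counts on chromosomes 4 to 9, X and MT and 0.746% on chromosome 3, where the other hypg15 libraries have 3.90% to 4.12%. Without library 75 the same model gave 3088 and 3527 (46.7% up). Library 3 of Ctrl and library 71 of hypg3 had the lowest GC slopes of their groups. Without Ctrl library 3 there were 2316 upregulated and 3504 downregulated genes, and without hypg3 library 71 there were 2994 and 4372.

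GC content separated the directions. The median GC content was 58.9% among upregulated and 43.0% among downregulated genes, and across 15984 genes Spearman's rho between log2 fold change and GC content was 0.683, a description across genes, which are not independent replicates and share the same libraries. Genes were ranked by GC content into 10 bins of equal size. In the bin with the lowest GC content (23.5% to 40.1%), 9 were upregulated and 827 downregulated, and in the bin with the highest (61.8% to 83.3%) 746 were upregulated and 5 downregulated. The calls changed over between the fifth bin (112 up, 383 down) and the sixth (232 up, 193 down). A GC correction, in which a smooth curve of count on GC content was fitted to each library and entered as an offset, brought rho to 0.012. It left 1477 (9.24%) upregulated and 2430 (15.2%) downregulated genes of 15984. Of the genes called as counted, 958 upregulated (35.0%) and 1572 downregulated (39.8%) kept their call and direction, and 14 and 8 were called in the opposite direction. Of the genes upregulated and downregulated after the correction, 519 and 858 had not been called in that direction as counted. A correction of this kind removes any biological difference that follows GC content together with any technical one, and what part each had was not tested.

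**Figure D2:**
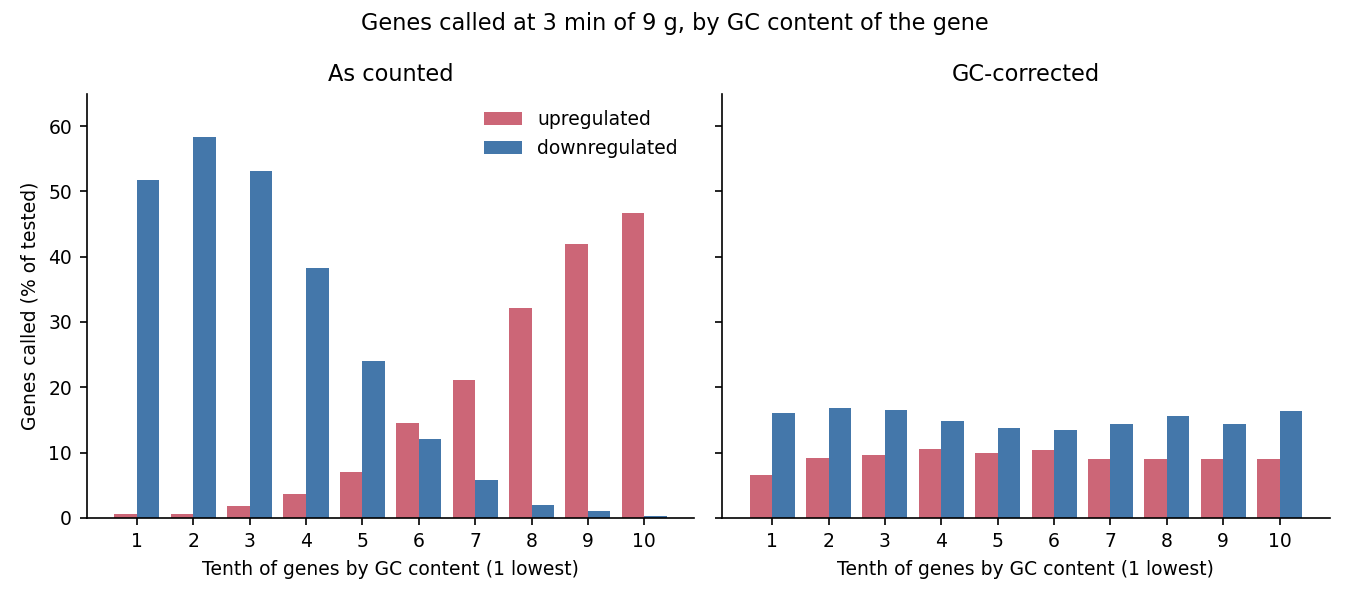
Percent of tested genes upregulated or downregulated at 3 min of 9 g in each of 10 bins of GC content (1 lowest, 10 highest), as counted and after the GC correction. As counted, downregulated genes fill the low bins (51.7% of the first) and upregulated genes the high ones (46.7% of the last). After the correction 106 were called up and 257 down in the first bin, and 144 up and 261 down in the last. As counted there were 9 up in the first bin and 5 down in the last, so part of the corrected calls are new.

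HSP90AA1, the stress-inducible cytosolic HSP90 chaperone, had the largest fall of the named genes after the GC correction and, next to MRPL1, the second largest as counted. It lies at chr14:102080742-102139699 (GRCh38, minus strand). Its lowest, median and highest levels were 703, 785 and 888 CPM in Ctrl and 250, 370 and 465 CPM in hypg3. Every library at 9 g lay far below every library at 1 g, with a log2 fold change of -1.07 ± 0.11 (SE, n = 6 per group, edgeR adjusted p = 1.8e-05) as counted and -0.89 ± 0.10 (adjusted p = 3.4e-05) after the GC correction. Against Ctrl60 in place of Ctrl it was -1.03. In bulk RNA, less RNA in every cell and fewer cells with a high level cannot be told apart. GAPDH, a glycolytic enzyme often used as a reference gene, at chr12:6534512-6538374, stood at 5833, 6543 and 7013 CPM in Ctrl and 6501, 6641 and 7419 CPM in hypg3. These ranges overlapped, and its log2 fold change was 0.07 ± 0.07 (adjusted p = 0.45) as counted and -0.07 (adjusted p = 0.41) after the correction.

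The HSP90 family moved unevenly. HSP90B1, its member in the endoplasmic reticulum, fell from a median of 137 to 81.5 CPM (log2 fold change -0.77, and -0.47 after the correction), and HSP90AB1, the constitutive cytosolic form, from 2464 to 2047 CPM (-0.28 and -0.20). TRAP1, the mitochondrial form, had medians of 336 and 357 CPM and was not called (0.10, adjusted p = 0.061). HSF1, the main heat shock transcription factor, was upregulated as counted by 0.19, with overlapping libraries, and stood at -0.01 (adjusted p = 0.76) after the correction.

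Among the 16 tested of 18 target chaperones of HSF1, none was upregulated and 7 (43.8%, against 24.4% of all genes) were downregulated as counted, and 10 (62.5%, against 15.2%) were downregulated after the correction (median log2 fold change -0.18 and -0.17, against -0.02 and -0.01 over all genes). HSPH1, an HSP110 nucleotide exchange factor for HSP70, had 78.6, 86.5 and 103 CPM in Ctrl and 44.3, 46.7 and 57.0 CPM in hypg3. The groups were well apart, with a log2 fold change of -0.85 ± 0.07 (adjusted p = 7.2e-06) as counted and -0.45 (adjusted p = 0.0013) after the correction. DNAJA1, a J-domain partner of HSP70, fell from a median of 187 to 113 CPM (-0.73, corrected -0.46). HSPD1 and HSPE1, the mitochondrial chaperonin and its lid, fell by 0.67 and 0.56 (corrected -0.48 and -0.44). HSPA4, a relative of HSPH1, fell by 0.62 (corrected -0.31), and AHSA1, which activates the HSP90 ATPase, by 0.20 (corrected -0.18). HSPA8, the constitutive HSP70, fell by 0.16 as counted and stood at -0.04 (adjusted p = 0.7) after the correction. The classical heat-inducible members did not pass the test as counted: HSPA1B stood at 0.17 (adjusted p = 0.067), DNAJB1 at 0.01 (adjusted p = 0.88) and BAG3 at 0.00 (adjusted p = 0.99). After the correction HSPB1, STIP1, BAG3 and DNAJB1 were called lower, at -0.20, -0.15, -0.14 and -0.09.

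Promoters of this family were searched for the paired heat shock element GAANNTTC, which reads the same on both strands, and for 3 adjoining units, GAANNTTCNNGAA on one strand or TTCNNGAANNTTC on the other, in RefSeq windows (GRCh38.p14) from 250 bases before to 50 bases after the annotated start. Of 19 promoters found among the HSF1 targets, HSP90AA1 and HSP90AB1, 8 (42.1%) held the pair and 4 (21.1%) held 3 units, against 6.87% and 0.487% of all 27305 promoters. The windows of HSPA1A and HSPA1L overlap and hold the same match. Among genes tested, the pair stood in 3.72% of upregulated and 5.13% of downregulated promoters, and in 4.55% of all 10794 tested. The median promoter GC content of these sets was 68.3%, 64.0% and 65.3%, and its part in the shares was not tested. DNAJA1 and HSPA8 are shown because they hold 3 units each and fell by different amounts, 0.73 and 0.16 as counted; capitals mark the matches. A match is a description of letters in one window and not of factor binding, and each gene is represented by a single annotated start. For HSP90AA1, a gene with more than one start, that window is at the far upstream end of the gene and need not belong to the transcript that was counted, so it is not shown.
DNAJA1, chr9:33025023-33025322, plus strand: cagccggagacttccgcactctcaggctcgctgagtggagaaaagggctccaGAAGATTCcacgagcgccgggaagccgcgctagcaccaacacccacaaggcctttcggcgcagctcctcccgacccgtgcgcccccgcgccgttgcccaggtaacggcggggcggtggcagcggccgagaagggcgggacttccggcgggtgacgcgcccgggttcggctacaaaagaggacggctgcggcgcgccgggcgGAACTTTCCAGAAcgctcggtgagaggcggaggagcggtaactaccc
HSPA8, chr11:123062087-123062386, minus strand: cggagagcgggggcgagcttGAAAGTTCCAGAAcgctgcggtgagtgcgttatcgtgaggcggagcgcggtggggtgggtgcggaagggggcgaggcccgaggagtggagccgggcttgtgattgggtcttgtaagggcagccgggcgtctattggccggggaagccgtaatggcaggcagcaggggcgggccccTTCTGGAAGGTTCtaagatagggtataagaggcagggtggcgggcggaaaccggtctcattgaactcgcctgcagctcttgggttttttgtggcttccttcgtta

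**Figure D3:**
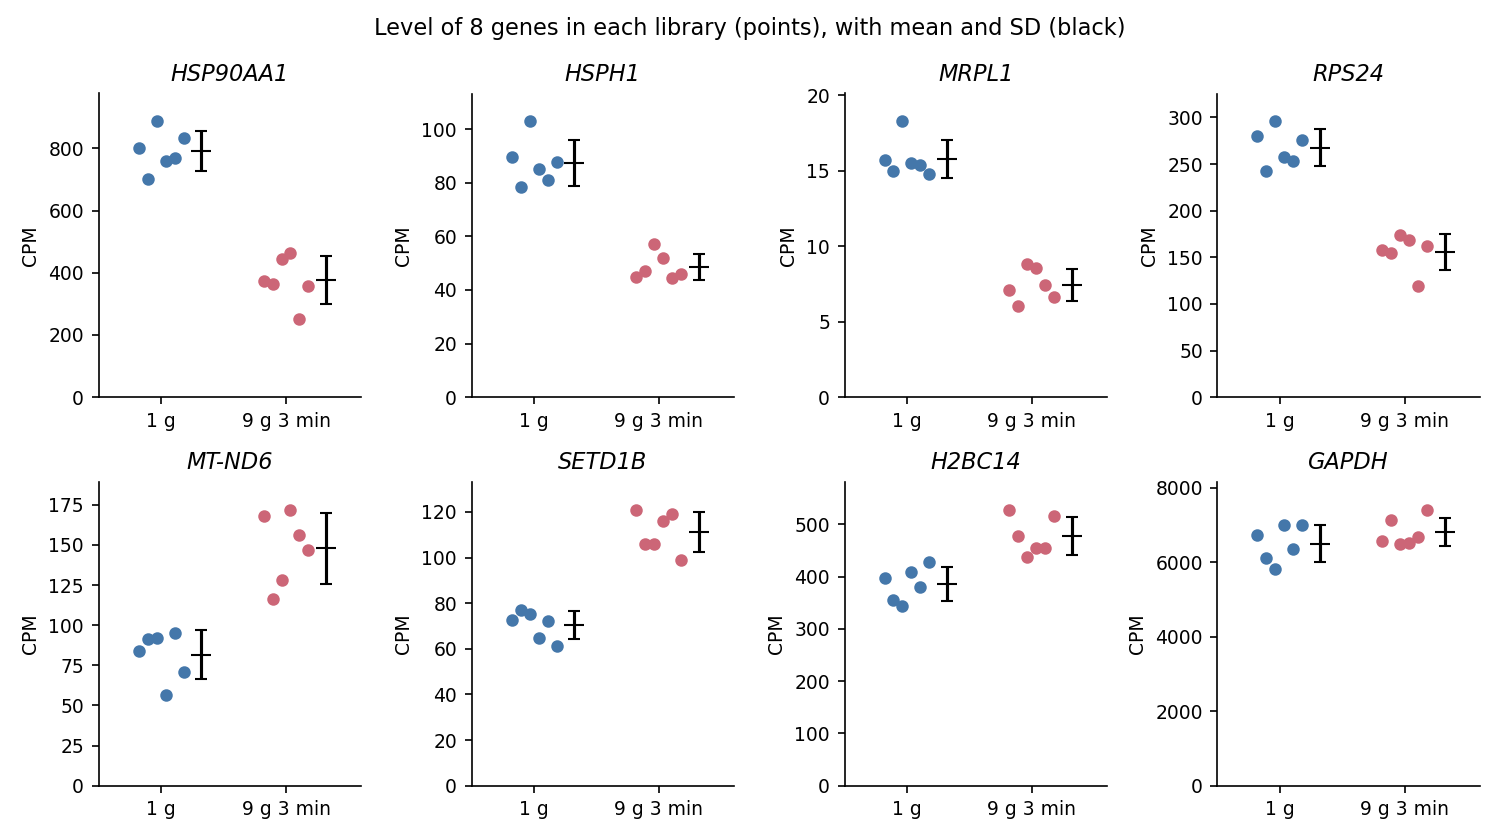
Level in CPM of 8 genes in each of the 6 libraries at 1 g and the 6 at 9 g for 3 min (points), with mean and SD in black; each axis starts at 0. HSP90AA1, HSPH1, MRPL1 and RPS24 are lower in every 9 g library, MT-ND6, SETD1B and H2BC14 are higher in every one, and GAPDH overlaps (5833 to 7013 against 6501 to 7419 CPM).

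Of 79 cytosolic ribosomal protein genes, 1 was upregulated, 44 (55.7%, against 24.4% of all genes) were downregulated and 34 were not called as counted. After the GC correction 1 was upregulated and 40 (50.6%, against 15.2%) were downregulated, and the median log2 fold change was -0.15 in both. The exon length correction left 27 of the 79 downregulated (median -0.1), against 2974 of all 16194 genes. The model of all 60 libraries called 20 downregulated, against 1851 of 17830 genes, and without library 75 it called 36, against 3527 of 17941. Ribosomal protein genes have many processed pseudogene copies, and reads that map to several places were not counted, so single members are uncertain. RPS24, a small subunit protein, at chr10:78033760-78056813, stood at 242, 267 and 296 CPM in Ctrl and at 119, 160 and 174 CPM in hypg3. It fell in every library, by 0.78 ± 0.08 (adjusted p = 1.1e-05) as counted and by 0.59 after the correction, although hypg3 library 73, at 119 CPM, lay well below the others. RPL7, RPL34 and RPL6, all of the large subunit, fell by 0.71, 0.63 and 0.60 (corrected -0.45, -0.35 and -0.46). Several abundant members did not pass the test: RPL7A stood at 0.02 (adjusted p = 0.79) and RPSA, which also acts as a laminin receptor, at 0.01 (adjusted p = 0.92).

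EIF3E, RSL24D1 and MTREX were named by the size of their fall and belong to no list. EIF3E, a subunit of initiation factor 3, fell from 109 to 53.4 CPM in the median (-0.95, corrected -0.54), and its highest control value, 156 CPM, was library 3. RSL24D1, which helps assemble the large subunit in the nucleolus, fell from 64.8 to 34.4 CPM (-0.93, corrected -0.53). MTREX, the helicase that feeds RNA to the nuclear exosome, fell from 46.1 to 23.5 CPM (-0.93, corrected -0.56). EIF3E and MTREX, on chromosomes 8 and 5, lost their calls in the model of all 60 libraries (adjusted p = 0.072 and 0.065) and had adjusted p = 5.3e-05 and 0.00029 in the same model without library 75.

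Mitochondrial ribosomal proteins are encoded in the nucleus and serve the 13 messenger RNAs of the mitochondrial genome. Of 76, 1 (1.32%) was upregulated and 39 (51.3%) were downregulated as counted, against 16.9% and 24.4% of all genes. After the correction there were 0 and 31 (40.8%), against 9.24% and 15.2%. MRPL1, at chr4:77862830-77952785, had 14.8, 15.5 and 18.3 CPM in Ctrl and 6.04, 7.27 and 8.85 CPM in hypg3. It was the well expressed gene with the largest fall as counted (-1.08 ± 0.09, adjusted p = 7.2e-06), and its corrected value was -0.68 (adjusted p = 5.9e-05). MRPL13, MRPS31 and MRPL47 fell by 0.75, 0.75 and 0.72 (corrected -0.34, -0.36 and -0.32). MRPL38 was the member upregulated as counted, by 0.35, and stood at 0.17 (adjusted p = 0.097) after the correction.

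Transcripts of the mitochondrial genome moved the other way. Of its 13 messenger RNAs 11 (84.6%, against 16.9% of all genes) were upregulated and none downregulated as counted, and all 13 were upregulated after the correction (median 0.42 and 0.60); in 9 of them every hypg3 library lay above every Ctrl library. MT-ND6, the one messenger RNA of the light strand, encodes a complex I subunit and lies at MT:14149-14673. It stood at 56.6, 87.6 and 95.4 CPM in Ctrl and at 116, 152 and 172 CPM in hypg3, apart in all libraries, with a log2 fold change of 0.86 ± 0.12 (adjusted p = 1.0e-04) as counted and 1.16 after the correction. MT-ND1, MT-ND5 and MT-ND2, also of complex I, rose by 0.56, 0.52 and 0.49, and MT-ATP6 and MT-ATP8, of ATP synthase, by 0.48 and 0.47. MT-CO3 and MT-ND3 stood at 0.16 (adjusted p = 0.054) and 0.07 (adjusted p = 0.36) as counted. None of the 13 was called in the model of all 60 libraries, where MT-ND6 had an adjusted p of 0.12, and without library 75, which has no mitochondrial counts, that model called 11 of 13 (MT-ND6 adjusted p = 4.2e-05). Nuclear genes of oxidative phosphorylation went against them: of 74, 4 (5.41%) were upregulated and 43 (58.1%) downregulated as counted, against 16.9% and 24.4% of all genes, and 1 (1.35%) and 25 (33.8%) after the correction, against 9.24% and 15.2%. The 4 upregulated became 1 without Ctrl library 3 or 5 and 2 without hypg3 library 69. ATP5F1E of ATP synthase, SDHD of complex II and COX6C of complex IV fell by 0.69, 0.69 and 0.68, and after the correction they stood at -0.27 (adjusted p = 0.19), -0.60 and -0.43.

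Of 19 glycolytic enzymes and glucose transporters, 1 (5.26%) was upregulated and 4 (21.1%) were downregulated as counted, against 16.9% and 24.4% of all genes, and 1 and 3 (15.8%, against 15.2%) after the correction. The one upregulated as counted was ALDOA (0.14, corrected -0.01), and LDHB, HK2, SLC2A1 and LDHA were downregulated. HK2, the inducible hexokinase, fell from 133 to 106 CPM in the median (-0.35, corrected -0.36), and SLC2A1, the glucose transporter GLUT1, from 161 to 134 CPM (-0.25, corrected -0.38). PKM, ENO1, TPI1 and PGK1 were not called as counted, at 0.06, -0.02, 0.05 and -0.01, and after the correction PGK1 was called higher (0.23) and PFKP lower (-0.11). Cholesterol synthesis showed 7 upregulated (31.8%) and 9 downregulated (40.9%) genes of 22 as counted, and 0 and 5 (22.7%) after the correction. IDI1 and INSIG1, the first an enzyme and the second the sterol-sensing brake on SREBP, fell by 0.56 and 0.26 (corrected -0.23 and -0.15).

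SETD1B and KMT2D were named by the size of their increase. SETD1B, a histone H3 lysine methyltransferase at chr12:121804009-121832656, had 61.2, 72.2 and 77.0 CPM in Ctrl and 99.1, 111 and 121 CPM in hypg3. The groups were far apart, at 0.66 ± 0.06 (adjusted p = 1.0e-05) as counted and 0.46 (adjusted p = 0.00017) after the correction. KMT2D, the methyltransferase of enhancers, rose from 317, 341 and 367 CPM to 451, 519 and 606 CPM (0.63, corrected 0.48). Among 31 Polycomb and Trithorax genes 11 (35.5%) were upregulated and 8 (25.8%) downregulated as counted, against 16.9% and 24.4% of all genes. After the correction there were 9 (29.0%) and 6 (19.4%), against 9.24% and 15.2%. The downregulated share was thus near that of all genes as counted. KMT2B, KDM6B, SETD1A and CBX2 rose by 0.48, 0.47, 0.41 and 0.37 (corrected 0.30, 0.28, 0.22 and 0.20). BMI1 and RNF2 of Polycomb complex 1 and EZH2, the methyltransferase of complex 2, fell by 0.52, 0.38 and 0.36, and of these EZH2 alone was called after the correction (-0.15, adjusted p = 0.0063).

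Other large increases were in PRR12, a proline-rich nuclear protein, with a rise from 163 to 243 CPM in the median (0.61, corrected 0.39), and BICRA, a subunit of a SWI/SNF complex, from 15.5 to 22.9 CPM (0.64, corrected 0.42). NECAB3, a calcium-binding protein, rose from 9.48 to 16.1 CPM (0.72, corrected 0.52), TTC34 from 8.33 to 13.2 CPM (0.69, corrected 0.50) and the antisense RNA SLFNL1-AS1 from 9.69 to 15.0 CPM (0.65, corrected 0.53). In all of these the groups did not overlap.

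Of 49 kinesin, centromere and spindle genes, 4 were upregulated, 28 (57.1%, against 24.4% of all genes) were downregulated and 17 were not called as counted (median -0.41); the 4 became 2 without Ctrl library 3 or hypg3 library 69. After the correction 1 was upregulated and 17 (34.7%, against 15.2%) were downregulated (median -0.08). TOP2A, topoisomerase II of dividing cells, at chr17:40388525-40417896, stood at 184, 214 and 284 CPM in Ctrl and 96.7, 117 and 160 CPM in hypg3, without overlap. Its log2 fold change was -0.83 ± 0.12 (adjusted p = 8.9e-05) as counted and -0.43 (adjusted p = 0.00012) after the correction, and its highest control value was library 3. HMMR, CKAP2 and CENPU, of spindle and centromere, fell by 0.98, 0.83 and 0.77 (corrected -0.57, -0.42 and -0.39), and CDK1, the mitotic kinase, by 0.72 (corrected -0.30). PLK1, AURKB and CDC20, regulators of mitosis with a GC content of 56.1% to 57.2% where TOP2A has 38.9%, were upregulated by 0.12, 0.15 and 0.12 as counted, and stood at -0.01, 0.03 and -0.01 after the correction.

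Cohesin, condensin and CTCF showed 0 upregulated and 15 downregulated (71.4%, against 24.4% of all genes) genes of 21 as counted (median -0.39), and 1 and 9 (42.9%, against 15.2%) after the correction (median -0.14). NCAPG of condensin, RAD21, the subunit of cohesin that is cleaved in mitosis, and STAG1 fell by 0.73, 0.68 and 0.65 (corrected -0.34, -0.34 and -0.30). SMC4 stood at -0.16 (adjusted p = 0.24) as counted and was the member called higher after the correction (0.24). In DNA replication 2 of 37 genes were upregulated and 21 (56.8%) downregulated as counted, and 3 and 13 (35.1%) after the correction. POLE, the catalytic subunit of the leading-strand polymerase, rose from 226 to 277 CPM in the median (0.28, corrected 0.18), while RFC1 of the clamp loader and RRM1 of ribonucleotide reductase fell by 0.70 and 0.46 (corrected -0.36 and -0.21).

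Replication-dependent histone genes, whose transcripts end in a stem-loop in place of a poly(A) tail, were mostly called higher as counted. Of 51, 43 (84.3%, against 16.9% of all genes) were upregulated and none downregulated (median 0.21). After the correction 17 of 49 (34.7%, against 9.24% of all genes) were upregulated (median 0.10). The differences were small, and in 4 of them the groups did not overlap. H2BC14, at chr6:27815022-27815489, had 343, 389 and 428 CPM in Ctrl and 438, 466 and 528 CPM in hypg3 (0.31 ± 0.06, adjusted p = 0.00083, corrected 0.21). H2BC18 and H2BC21 rose by 0.27 each (corrected 0.35 each), and H2AC6 by 0.26 (corrected 0.59). Histone genes are near-identical copies, so members are uncertain one by one. The exon length correction left 13 of the 51 upregulated and the model of all 60 libraries 2. The same model without library 75, which has no counts on chromosome 6 where most of these genes lie, called 25.

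Of 19 SR splicing factors, their kinases and CLK kinases, 2 were upregulated and 14 (73.7%, against 24.4% of all genes) downregulated as counted (median -0.23), and 3 and 4 (21.1%, against 15.2%) after the correction (median 0.02). SRSF1, a founding SR protein, fell from a median of 107 to 75.8 CPM (-0.53, corrected -0.42), and SRPK1 and SRPK2, which phosphorylate SR proteins, by 0.58 and 0.52 (corrected -0.32 and -0.30). SRSF5, CLK1 and CLK4 were not called as counted (0.08, -0.10 and -0.17) and were called higher after the correction (0.29, 0.32 and 0.25). Spliceosomal snRNAs showed 0 and 6 (42.9%) called of 14 as counted, and 0 and 1 after the correction. The 6 became 3 without Ctrl library 2 or 5 or hypg3 library 70, 72, 73 or 74. RNA polymerase II and Mediator subunits showed 5 upregulated and 17 (40.5%) downregulated of 42 as counted, with 20 not called, and 3 and 13 after the correction. POLR2A, the largest subunit of the polymerase, rose from 794, 840 and 856 CPM to 947, 1038 and 1113 CPM (0.32 ± 0.04, adjusted p = 5.4e-05, corrected 0.21), while POLR2K, a small shared subunit, fell from a median of 25.0 to 15.7 CPM (-0.69, corrected -0.25, adjusted p = 0.11). MED12 of the Mediator kinase module rose by 0.21 (corrected 0.12) and its partner CCNC, cyclin C, fell by 0.65 (corrected -0.25). Nuclear pore genes showed 5 (17.9%) and 15 (53.6%) called of 28 as counted, against 16.9% and 24.4% of all genes. After the correction there were 4 and 4 (14.3% each), against 9.24% and 15.2%. The 5 became 3 without Ctrl library 1 and 2 without Ctrl library 3 or 5 or hypg3 library 69. In this list POM121, a membrane anchor of the pore, rose by 0.26 (corrected 0.12) and NUP107 of its scaffold fell by 0.54 (corrected -0.18). Proteasome subunits showed 1 and 18 (52.9%) called of 34 as counted, and 0 and 11 (32.4%) after the correction, with the largest falls in PSMD12 and PSMA4 (-0.64 each, corrected -0.26 and -0.31).

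**Figure D4:**
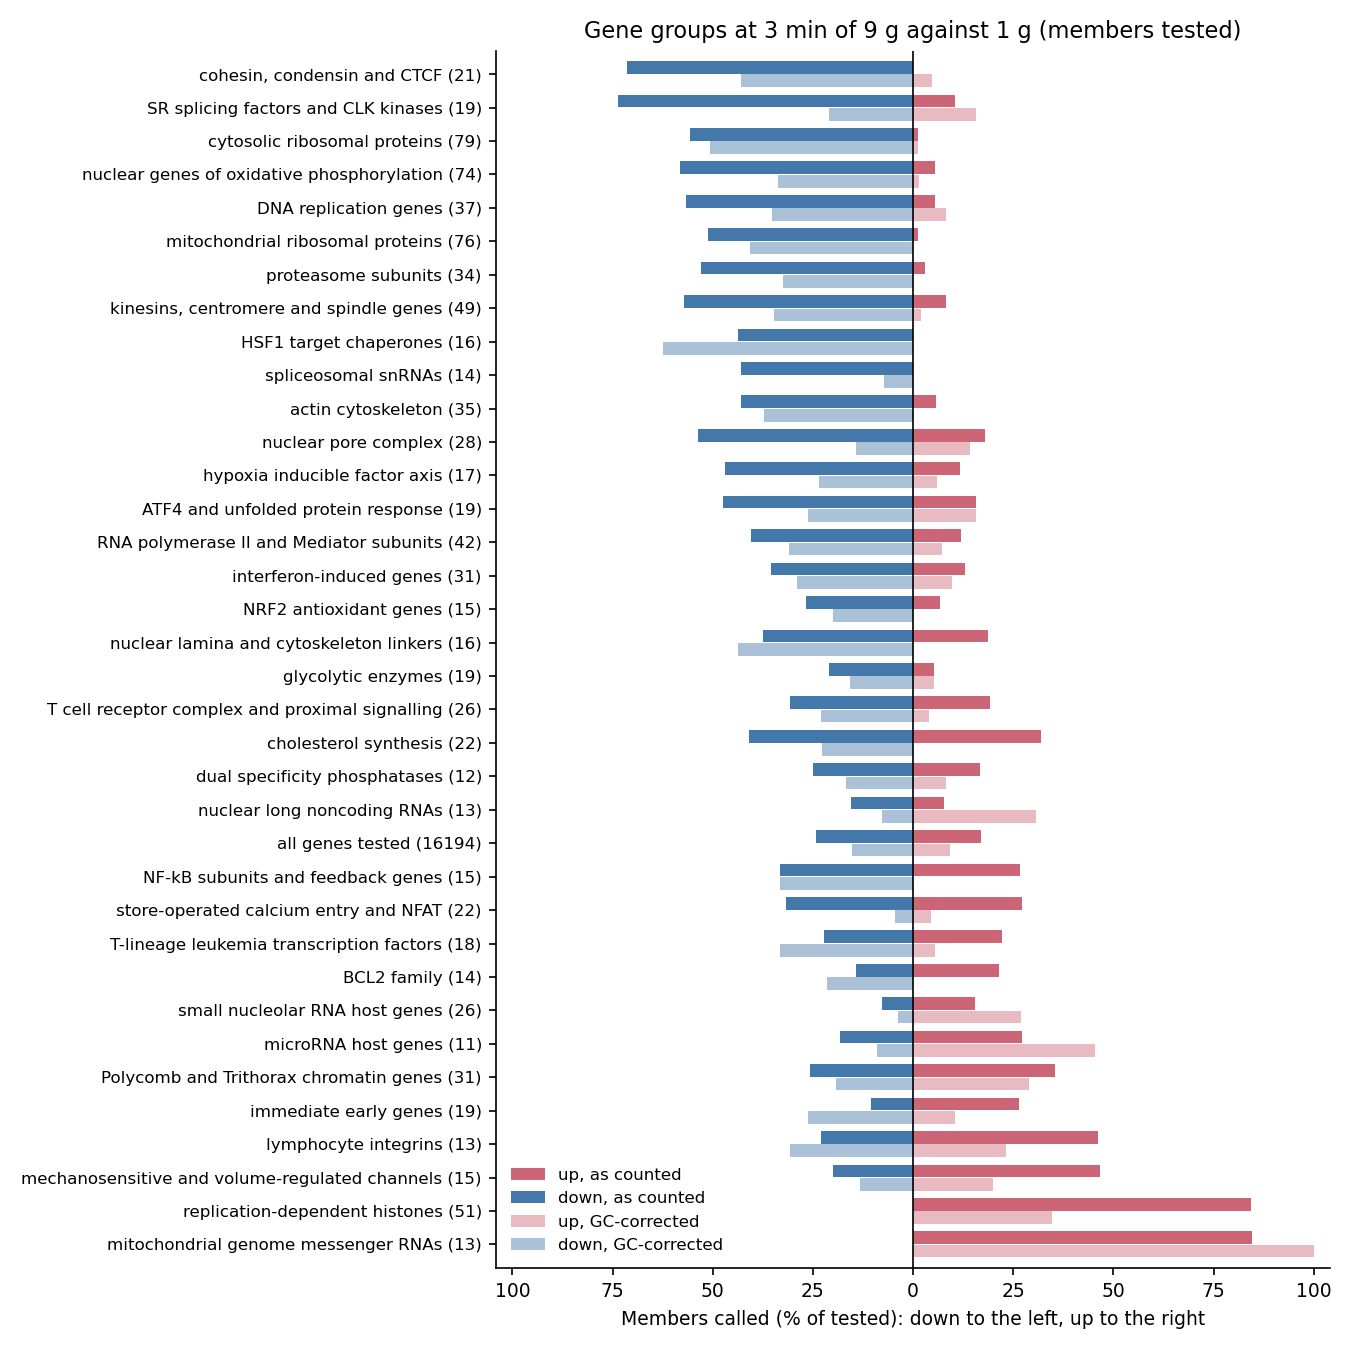
Percent of tested members of the gene lists that were downregulated (left) or upregulated (right) at 3 min of 9 g, as counted and after the GC correction, with all genes tested (16.9% up and 24.4% down as counted) for reference. Mitochondrial genome messenger RNAs and histones lie to the right and cytosolic and mitochondrial ribosomal proteins to the left in both.

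Of 15 mechanosensitive and volume-regulated channels, 7 (46.7%, against 16.9% of all genes) were upregulated and 3 (20.0%, against 24.4%) downregulated as counted. After the correction there were 3 (20.0%, against 9.24%) and 2 (13.3%, against 15.2%). PIEZO1, a stretch-gated cation channel, rose from a median of 416 to 519 CPM (0.32, corrected 0.13, adjusted p = 0.0087). PKD1, a large membrane protein of the polycystin complex, rose from 95.9, 105 and 111 CPM to 125, 141 and 165 CPM (0.45, corrected 0.22), and TMEM63A, an osmosensitive channel, by 0.26 (corrected 0.18). CLCN3, a chloride and proton exchanger of endosomes, fell from a median of 41.8 to 27.4 CPM (-0.61, corrected -0.28), and LRRC8D, of the volume-regulated anion channel, by 0.35 (corrected -0.19).

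Lymphocyte integrins and their partners showed 6 upregulated (46.2%) and 3 downregulated (23.1%) genes of 13 as counted, against 16.9% and 24.4% of all genes, and 3 (23.1%) and 4 (30.8%) after the correction, against 9.24% and 15.2%. ITGA5, a chain of the fibronectin receptor, stood at 56.4, 61.0 and 64.7 CPM in Ctrl and 74.7, 78.2 and 83.4 CPM in hypg3, whereas its partner chain ITGB1 stood at 55.2, 58.8 and 69.5 CPM in Ctrl and 32.7, 35.2 and 46.5 CPM in hypg3. Both pairs of groups were apart, ITGA5 at 0.38 (corrected 0.27) and ITGB1 at -0.71 (corrected -0.35). Talin (TLN1), which links integrins to actin, rose by 0.23 as counted and stood at 0.10 (adjusted p = 0.06) after the correction.

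The actin list showed 2 upregulated and 15 downregulated (42.9%, against 24.4% of all genes) genes of 35 as counted, and 0 and 13 (37.1%, against 15.2%) after the correction. ACTB, the main actin, had medians of 11433 and 11884 CPM (0.06, adjusted p = 0.5). ACTR2 and ACTR3, the actin-like core of the Arp2/3 complex, fell by 0.67 and 0.63 (corrected -0.31 and, not called, -0.22), and CAPZA2, which caps filament ends, from a median of 26.6 to 14.5 CPM (-0.90, corrected -0.51). FLNA, which crosslinks filaments, rose by 0.21 with overlapping libraries (corrected 0.03). Nuclear lamina and linker genes showed 3 (18.8%) and 6 (37.5%) called of 16 as counted, against 16.9% and 24.4% of all genes. After the correction there were 0 and 7 (43.8%), against 9.24% and 15.2%. LBR, which ties chromatin to the inner nuclear membrane, fell from 136, 144 and 165 CPM to 82.7, 90.2 and 117 CPM (-0.63, corrected -0.28), and lamin B1 (LMNB1) by 0.36 (corrected -0.35). SUN2, which couples the lamina to the cytoskeleton, rose by 0.19 as counted and stood at 0.01 (adjusted p = 0.76) after the correction.

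T cell receptor and proximal signalling genes showed 5 upregulated (19.2%) and 8 downregulated (30.8%) genes of 26 as counted, against 16.9% and 24.4% of all genes, and 1 (3.85%) and 6 (23.1%) after the correction, against 9.24% and 15.2%. PTPRC, the phosphatase CD45, fell from a median of 88.1 to 54.7 CPM with overlapping libraries (-0.60, corrected -0.23, adjusted p = 0.092), and CD28, the costimulatory receptor, from 62.3 to 44.3 CPM (-0.50, corrected -0.23). The receptor chains CD3D and CD3E stood at -0.05 (adjusted p = 0.38) and 0.00 (adjusted p = 0.95). ZAP70, the kinase that docks on the receptor, rose by 0.16 as counted and stood at -0.03 after the correction. Store-operated calcium entry and NFAT genes showed 6 (27.3%) and 7 (31.8%) called of 22 as counted, and 1 and 1 (4.55% each) after the correction. ITPR3, a calcium channel of the endoplasmic reticulum, rose by 0.26 (corrected 0.11), and CALM2, which encodes calmodulin, fell by 0.46 as counted and stood at -0.06 (adjusted p = 0.7) after the correction.

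Of 19 immediate early genes, which respond fastest to a stimulus, 5 (26.3%, against 16.9% of all genes) were upregulated and 2 downregulated as counted, and 2 and 5 (26.3%, against 15.2%) after the correction. JUN stood at 14.3, 15.4 and 17.3 CPM in Ctrl and 18.1, 21.0 and 21.9 CPM in hypg3, apart in all libraries (0.37 ± 0.07, adjusted p = 0.00062, corrected 0.25, adjusted p = 0.011). MYC rose from a median of 410 to 485 CPM (0.23, corrected 0.10). KLF6 fell from 24.5 to 19.4 CPM (-0.36, corrected -0.32), and EGR1 from 8.09 to 5.99 CPM (-0.37, corrected -0.47). FOS was low, with medians of 1.54 and 1.59 CPM (-0.02, adjusted p = 0.91), and NR4A1, a receptor induced by T cell activation, stood at 0.09 (adjusted p = 0.3). Dual specificity phosphatases, which switch off MAP kinases, showed 2 (16.7%) and 3 (25.0%) called of 12 as counted, against 16.9% and 24.4% of all genes, and 1 (8.33%) and 2 (16.7%) after the correction; DUSP1 stood at 0.09 (adjusted p = 0.11). NF-kB genes showed 4 (26.7%) and 5 (33.3%) called of 15, and 0 and 5 (33.3%) after the correction, among them the feedback inhibitor TNFAIP3 (-0.23, corrected -0.22).

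For the following lists the shares over all genes were 16.9% up and 24.4% down as counted, and 9.24% and 15.2% after the correction. Of 19 genes of ATF4 and the unfolded protein response, 3 (15.8%) were upregulated and 9 (47.4%) downregulated as counted, and 3 and 5 after the correction. CHAC1, which degrades glutathione and is induced by ATF4, rose from a median of 4.18 to 6.87 CPM (0.76, adjusted p = 2.9e-05, corrected 0.57), while ATF4 itself stood at -0.02 (adjusted p = 0.7) and HSPA5, the main chaperone of the endoplasmic reticulum, fell by 0.29 (corrected -0.14, adjusted p = 0.082). The axis of hypoxia inducible factor showed 2 (11.8%) and 8 (47.1%) called of 17 as counted, and 1 and 4 after the correction. BNIP3 and ANKRD37, both targets of that factor, fell by 0.43 and 0.70 (corrected -0.44 and -0.76). Antioxidant genes of NRF2 showed 1 (6.67%) and 4 (26.7%) called of 15, and 0 and 3 after the correction, and the 4 became 2 without Ctrl library 5 or hypg3 library 70, 72 or 73. Thioredoxin (TXN) fell by 0.64 (corrected -0.23, adjusted p = 0.14) and its reductase TXNRD1 by 0.49 (corrected -0.30). Interferon-induced genes showed 4 (12.9%) and 11 (35.5%) called of 31, and 3 and 9 after the correction, with IFI16, a nuclear DNA sensor, down from 123 to 67.2 CPM in the median (-0.92, corrected -0.54) and the transcription factor IRF1 up from 158 to 191 CPM (0.26, corrected 0.17). BCL2 family genes showed 3 (21.4%) and 2 (14.3%) called of 14, and 0 and 3 after the correction. Transcription factors of T-lineage leukemia showed 4 (22.2%) and 4 (22.2%) called of 18, and 1 and 6 after the correction: NOTCH3 rose from a median of 171 to 217 CPM (0.37, corrected 0.18), ETS1 fell from 272 to 187 CPM (-0.50, corrected -0.30), and TAL1, a driver of this leukemia, rose by 0.11 as counted (corrected 0.03, adjusted p = 0.5).

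Of 1091 antisense genes 193 were upregulated (17.7%, against 16.9% of all genes) and 43 downregulated (3.94%, against 24.4%) as counted, and 140 (12.8%, against 9.24%) and 24 (2.2%, against 15.2%) after the correction. Of 793 lincRNA genes 110 (13.9%) and 35 (4.41%) were called as counted, and 112 (14.1%) and 20 (2.52%) after the correction, and these differences between shares were not tested. Of 12196 protein-coding genes 2166 were upregulated and 3737 downregulated as counted, and 978 and 2312 of 12189 after the correction. Small nucleolar RNA host genes showed 4 (15.4%) and 2 (7.69%) called of 26, and 7 (26.9%) and 1 (3.85%) after the correction, and the 4 became 9 without hypg3 library 71 or 73. SNHG14 rose from a median of 172 to 197 CPM (0.21, corrected 0.41). Nuclear long noncoding RNAs showed 1 (7.69%) and 2 (15.4%) called of 13, and 4 (30.8%) and 1 (7.69%) after the correction; MALAT1 and NEAT1, which mark nuclear speckles and paraspeckles, stood at -0.31 and 0.40 and were not called (adjusted p = 0.25 for each). The 7SL RNA gene RN7SL1, the most abundant here, stood at 0.06 (adjusted p = 0.66).

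Of 11 listed microRNA host transcripts 3 (27.3%, against 16.9% of all genes) were upregulated and 2 (18.2%, against 24.4%) downregulated as counted, and 5 (45.5%, against 9.24%) and 1 (9.09%, against 15.2%) after the correction. Another 2 hosts outside the list, MIR142HG and MIR223HG, are named by the size of their change among genes of at least 10 CPM. MIRLET7BHG, host of let-7a-3 and let-7b at chr22:46053869-46113928, had 14.9, 16.3 and 18.7 CPM in Ctrl and 23.4, 27.8 and 28.5 CPM in hypg3. The groups did not overlap (0.70 ± 0.07, adjusted p = 1.4e-05, corrected 0.50). MIR142HG, at chr17:58330884-58332508, rose from 27.7, 33.7 and 36.0 CPM to 42.0, 51.7 and 56.9 CPM (0.63, corrected 0.43), and MIR223HG, at chrX:66015461-66020422, from 13.0, 14.4 and 16.0 CPM to 18.1, 21.1 and 25.6 CPM (0.59, corrected 0.84). MIR23AHG, host of miR-23a, rose by 0.39 (corrected 0.25). MIR210HG, host of the hypoxia-induced miR-210, fell from a median of 3.17 to 2.40 CPM (-0.40, corrected -0.57). These values are of the host transcripts, and the mature microRNAs were not measured. Of the mature sequences that RefSeq places in MIRLET7BHG, MIR142HG and MIR223HG, the let-7 5p arms, both arms of miR-142 and miR-223-3p are given (GRCh38.p14) with the seed, bases 2 to 8, in capitals; let-7a and let-7b share one seed and the others have their own.
hsa-let-7a-5p: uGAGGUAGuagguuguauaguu
hsa-let-7b-5p: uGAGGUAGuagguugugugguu
hsa-miR-142-5p: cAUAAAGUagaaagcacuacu
hsa-miR-142-3p: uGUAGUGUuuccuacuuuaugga
hsa-miR-223-3p: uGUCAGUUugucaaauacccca

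After the GC correction the genes with the largest values shifted. The largest increases among genes called in both fits, at 10 CPM or more, were MT-ND6 (1.16), the nuclear copy of a mitochondrial gene MTND2P28 (0.87), MT-ATP8 (0.86), MIR223HG (0.84) and MT-ND2 (0.77). The largest decreases were HSP90AA1 (-0.89), HMGB1P6 (-0.70), MRPL1 (-0.68), EID1 (-0.66) and HTATSF1 (-0.64). HMGB1P6 is a processed copy of HMGB1, an abundant chromatin protein, and its reads may belong to the parent gene, as those of MTND2P28 may belong to MT-ND2. EID1, an inhibitor of histone acetylation, fell from a median of 29.3 to 16.4 CPM as counted (-0.89), and HTATSF1, a splicing cofactor, from 38.4 to 23.4 CPM (-0.76). The genes chosen for opposite calls moved little either way: SSBP4, TELO2 and ZNF598, with GC contents of 66.0% to 67.6%, stood at 0.15, 0.15 and 0.14 as counted and at -0.08 each after the correction, and PARP8, PAFAH1B1 and WDR26, with 41.1% to 42.8%, stood at -0.23, -0.18 and -0.16 and then at 0.12, 0.10 and 0.15.

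**Figure D5:**
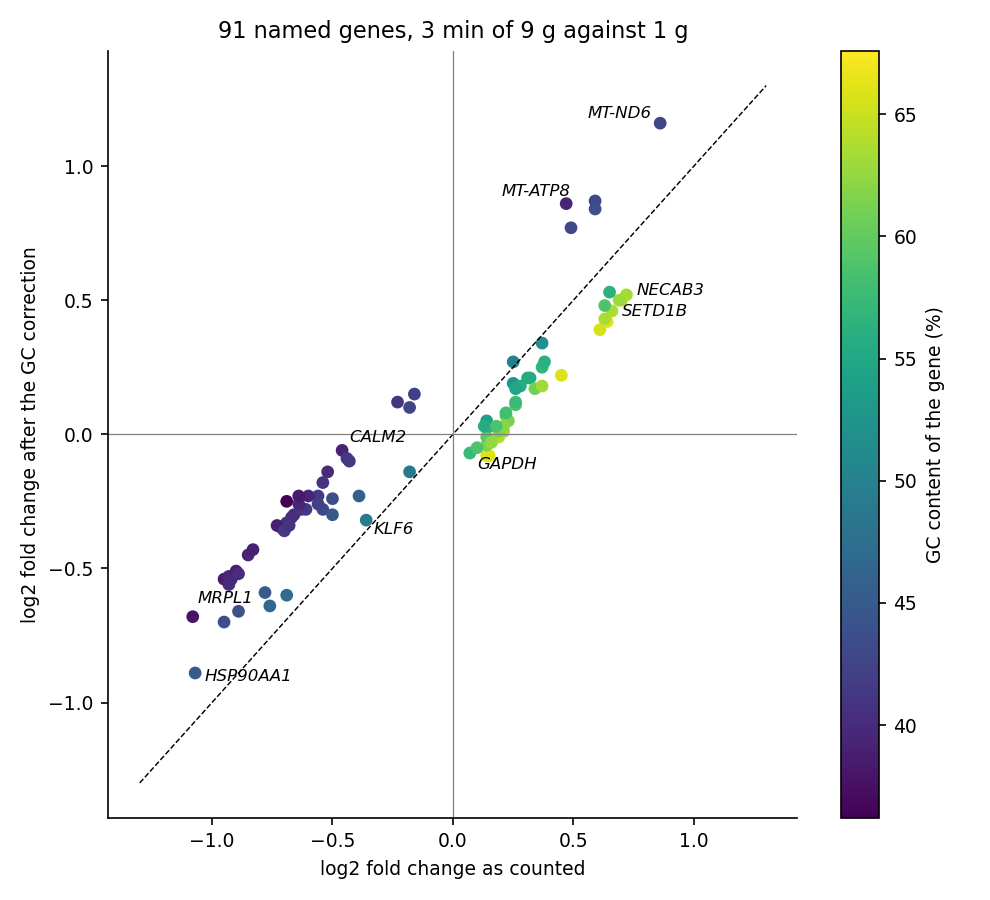
The 91 named genes by log2 fold change of hypg3 against Ctrl as counted (horizontal axis) and after the GC correction (vertical axis), coloured by GC content in percent. Low-GC genes lie mostly above the diagonal and GC-rich genes below it, while HSP90AA1 (-1.07 and -0.89) and MT-ND6 (0.86 and 1.16) stay at the ends.

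The 3 min libraries were also set directly against the neighbouring times. Against hypg75s (75 s at 9 g) 20 of 16199 genes (0.123%) were higher and 90 (0.556%) lower at 3 min. Against hypg5 (5 min) 57 of 16183 (0.352%) were higher and 346 (2.14%) lower, and after the GC correction 10 and 15. Against hypg15 (15 min, 5 libraries, without library 75) 134 of 15915 (0.842%) were higher and 271 (1.7%) lower, and after the correction 466 and 422. The comparison with hypg15 is the only one inside the number block 69 to 80. Spearman's rho across genes between fold change and GC content was 0.457, 0.653 and -0.395 in the 3 comparisons, again as a description.

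Scaled over all 80 libraries, the median level of HSP90AA1 was 827 CPM in Ctrl, 852 in Ctrl60, 582 at 20 s, 525 at 75 s, 404 at 3 min, 714 at 5 min, 676 at 7 min, 720 at 9 min, 372 at 15 min and 724 at 60 min. The lowest medians were those of the block 69 to 80. The 3 min level was lower than that at 5 min (log2 difference -0.76, adjusted p = 0.026, and -0.59, adjusted p = 0.059 after the correction), and the tests against 75 s (-0.48, adjusted p = 0.083) and 15 min (0.08, adjusted p = 0.78) did not pass. MRPL1 had medians of 16.3 CPM in Ctrl, 7.72 at 3 min, 13.6 at 5 min and 6.68 at 15 min, in the same order as those of HSP90AA1 in these groups. The order did not hold at the other times. At 9 min and 60 min MRPL1 stood at 10.8 and 8.98 CPM, below its 5 min level, where HSP90AA1 stood at 720 and 724 CPM, above its own. RPS24, TXN and POLR2K were lower at 3 min than at 5 min by 0.56, 0.49 and 0.55 on the log2 scale, and RPL7, RPL23 and RPS27A by 0.66, 0.36 and 0.36. After the GC correction RPS24 was still called (-0.40, adjusted p = 0.038), while TXN (-0.23, adjusted p = 0.39), POLR2K (-0.27, adjusted p = 0.4), RPL7 (-0.46, adjusted p = 0.059), RPL23 (-0.21, adjusted p = 0.19) and RPS27A (-0.23, adjusted p = 0.14) were not.

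JUN had medians of 16.4 CPM in Ctrl, 22.9 at 20 s, 23.1 at 75 s, 22.6 at 3 min, 20.4 at 5 min, 15.5 at 15 min and 16.9 at 60 min. Inside the block it was higher at 3 min than at 15 min by 0.46 (adjusted p = 0.0041, corrected 0.51). MYC was higher at 3 min than at 15 min by 0.42 (adjusted p = 0.00051), SRSF5 by 0.37 (adjusted p = 0.0028), CHAC1 by 0.82 (adjusted p = 0.001) and CBX2 by 0.27 (adjusted p = 0.013). Lower at 3 min than at 15 min were SLC2A1 (-0.45, adjusted p = 0.00072), PFKFB3, the enzyme that drives glycolytic flux (-0.44, adjusted p = 0.00051), HSPA8 (-0.36, adjusted p = 0.0038) and DNAJB1 (-0.30, adjusted p = 0.0037). All of these kept their direction and call after the GC correction, and all were chosen for naming after their values were seen.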

How the data were processed

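Gene counts of 80 libraries were taken from the table deposited by the authors, who trimmed reads with Trim Galore 0.6.5, aligned them to GRCh38 with STAR 2.7.3a and counted them by strand with featureCounts (2.0.1 in the submitters' processing notes, 2.0.3 in the file header, Ensembl 104). Of 60666 records, 60663 were usable, and 1 gene with a broken record was left out. Counts were tested with edgeR 4.0.16 in R 4.3.3 (TMM, filterByExpr with a minimum count of 10, quasi-likelihood F test, Benjamini-Hochberg threshold 0.05) on the 6 hypg3 and 6 Ctrl libraries. GC content was matched for 58336 genes from GENCODE 29 tables. For the GC correction a lowess curve (span 0.3, prior count 2) of log2 counts against GC content was removed from each library as an offset. Library measures were compared by exact permutation tests over 924 splits in Python 3.11.15. Alternatives were exon length, no filter, RLE size factors, total counts, DESeq2 1.42.0, 3 surrogate variables from sva 3.50.0, other control groups, a model of all 60 libraries and leaving out each library. Named genes were HSP90AA1, GAPDH, the 10 largest changes in each direction among genes of at least 10 CPM whose groups did not overlap, the 5 largest after the GC correction, 3 in each direction with opposite calls, and the largest called rise and fall of at least 10 CPM in each of 37 gene lists. Other list members were added where a list is described. The comparison, lists and rules were chosen with earlier results of these data known. On simulated data for hypg3 against Ctrl (16007 genes) the test recovered 80.0% of 1.5-fold and 92.8% of 2-fold changes, and 6.08% of its calls were false. The simulated libraries shared the same gene proportions apart from the changed genes, with no GC slope and no number block. The share of false calls in the real comparison therefore cannot be read from them. The depth of 23538676 to 36406463 counts per library sets the counting error, and p-values measure the spread between libraries.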

Additional observations from a re-analysis of the deposited data

Results flagged for a closer look

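Of 200 groups of 6 libraries examined (91 named genes and the library measures in each group), 22 held a library that stood apart from the other five by Dixon's test, which marks about 1 in 20 groups by chance. In 17 of them the library was Ctrl library 3, and in all 17 it was the highest. Among genes of translation and RNA turnover it had 156 CPM for EIF3E, where the other Ctrl libraries had 99.6 to 113, 83.5 for RSL24D1 (others 61.0 to 67.0), 61.3 for MTREX (44.6 to 47.6), 18.3 for MRPL1 (14.8 to 15.7), 26.8 for ZCRB1 (21.1 to 22.0) and 50.2 for HTATSF1 (34.3 to 40.3). Among genes of the nucleus and of division it had 284 CPM for TOP2A (others 184 to 217), 165 for LBR (136 to 145), 149 for IFI16 (119 to 126), 318 for ETS1 (259 to 277), 40.2 for EID1 (28.7 to 29.4) and 24.6 for HMGB1P6 (16.9 to 19.0). Among genes of cytoskeleton, protein quality control and mitophagy it had 244 CPM for ACTR2 (others 173 to 197), 32.8 for CAPZA2 (25.2 to 27.0), 28.8 for DNAJC3 (18.3 to 21.9), 44.8 for PSMD12 (32.5 to 35.8) and 53.3 for BNIP3L (38.4 to 42.9). This library also had the lowest GC slope of the 12, at -0.118, and its part in these values was not tested.

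The other groups that held such a library were MTND2P28 in Ctrl library 4 (42.4 CPM, others 50.6 to 53.9), RPS24 in hypg3 library 73 (119 CPM, others 155 to 174), SUN2 in hypg3 library 71 (201 CPM, others 217 to 225), AURKB in hypg3 library 74 (138 CPM, others 122 to 128) and the total counts of Ctrl library 2 (27314458, others 33857227 to 36083081).

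In 273 direct tests of the named genes between 3 min and a neighbouring time, 15 passed the threshold in edgeR's quasi-likelihood test, adjusted over all genes. None of these was against 75 s. Lower at 3 min than at 5 min were EIF3E (-0.80, adjusted p = 0.027), RSL24D1 (-0.78, adjusted p = 0.013), CAPZA2 (-0.78, adjusted p = 0.016), HSP90AA1 (-0.76, adjusted p = 0.026), MRPL1 (-0.73, adjusted p = 0.014) and HMGB1P6 (-0.73, adjusted p = 0.031). So were RPS24 (-0.56, adjusted p = 0.0069), POLR2K (-0.55, adjusted p = 0.016), TXN (-0.49, adjusted p = 0.0039), HSPH1 (-0.48, adjusted p = 0.045), MT-ND6 (-0.43, adjusted p = 0.036) and CALM2 (-0.27, adjusted p = 0.034). Higher at 3 min than at 15 min were RSL24D1 (0.47, adjusted p = 0.01), JUN (0.46, adjusted p = 0.0041) and POLR2K (0.44, adjusted p = 0.021). After the GC correction EIF3E (-0.52, adjusted p = 0.04), CAPZA2 (-0.53, adjusted p = 0.037) and RPS24 (-0.40, adjusted p = 0.038) against 5 min and JUN (0.51, adjusted p = 0.00025) against 15 min were still called, and the others were not, with adjusted p from 0.055 for MRPL1 to 0.97 for CALM2. The comparisons with 5 min cross the number block and that with 15 min does not.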

How the results depend on the processing

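Of the 91 named genes, 41 had the same call under all 24 alternatives, 50 had another call under at least 1, and 12 turned direction under at least 1. The main fit gave 2740 upregulated and 3945 downregulated genes. More were called with 3 surrogate variables as covariates (3582 and 5282) and with Ctrl and Ctrl60 together as control (3817 and 4211). The GC correction gave 1477 upregulated and 2430 downregulated genes and 1 gene down past 2-fold. Ctrl60 as control with that correction, chosen after seeing the data, gave 1664 and 2461, and 32 and 8 past 2-fold. Past 2-fold, no filter on low counts gave 89 up and 70 down and RLE size factors 9 down. The model of all 60 libraries gave 1851 downregulated genes and 62 up past 2-fold, and without library 75, chosen after seeing the data, 69 up and 27 down past 2-fold. Leaving out each library in turn gave 2298 to 3147 upregulated and 3238 to 4372 downregulated genes, and 19 to 45 up and 7 to 39 down past 2-fold. The 2-fold counts moved by over 1.5 times without Ctrl library 2 (45 up), 3 (28 up, 7 down), 4 (24 down) or 5 (31 up), or hypg3 library 70 (27 up), 71 (39 down) or 74 (30 up). In the gene lists, counts of 3 or fewer called members moved by at most 2 when any one library was left out.

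Genes that turned direction after the GC correction, with the value for Ctrl60 and GC correction second, were GAPDH (-0.07, -0.06), SSBP4 (-0.08, -0.09), TELO2 (-0.08, -0.08), ZNF598 (-0.08, -0.11), PARP8 (0.12, 0.12), PAFAH1B1 (0.10, 0.11), WDR26 (0.15, 0.15), NDUFS8 (-0.04, -0.07), ALDOA (-0.01, -0.06), HSF1 (-0.01, -0.03), ZAP70 (-0.03, -0.04) and SQSTM1 (-0.05, -0.06). Of these, GAPDH, NDUFS8, ALDOA, HSF1 and ZAP70 were not called after the GC correction (edgeR adjusted p = 0.38 to 0.83), so for them only the sign changed. GAPDH was not called as counted either.

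Against 75 s the GC correction gave 8 higher and 18 lower, total counts 139 and 288, and DESeq2 157 and 252. Against 5 min these were 10 and 15, 305 higher with total counts, and 473 and 624. Against 15 min they were 466 and 422 with the GC correction and 274 higher with DESeq2. With Ctrl60 in place of Ctrl the difference in total counts was 228907 (exact permutation, adjusted p = 0.918), in genes with at least 10 counts 147 (adjusted p = 0.562) and in the pseudogene share 0.0343 percentage points (adjusted p = 0.039). Apart from the model with library 75, the cause of these shifts was not tested.

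The number block 69 to 80 has no control, so time and block cannot be told apart against Ctrl. No paired analysis was possible because the groups share no replicate numbers.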

Other observations

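Genes past 2-fold were mostly low, under 10 CPM on average, and were chosen by size after their values were seen. Upregulated among them were the antisense RNA TEDC2-AS1 (log2 fold change 1.45, corrected 1.29), the mitochondrial aspartate tRNA MT-TD (1.14, corrected 1.45), CACNA1I, a T-type calcium channel (1.12, corrected 0.95), and SLFNL1 (1.06, corrected 0.91), whose antisense neighbour SLFNL1-AS1 was upregulated as well. Downregulated were RAB20, a small GTPase of phagosomes (-1.28, corrected -1.42), HSP90AA2P, a copy of HSP90AA1 whose reads may belong to the parent gene (-1.13, corrected -0.81), SMIM30 (-1.02, corrected -0.64) and KLF5, a zinc finger transcription factor (-1.0, corrected -0.78). ICOS, a costimulatory receptor of activated T cells, stood at -1.02 as counted and at -0.65 (edgeR adjusted p = 0.081) after the correction.

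Over all genes 16.9% were upregulated and 24.4% downregulated as counted, and 9.24% and 15.2% after the correction. Of 1166 genes on chromosome 19, with a median GC content of 58.8%, 338 (29.0%) were upregulated and 80 (6.86%) downregulated as counted, and 110 (9.52%) and 197 (17.0%) after the correction. Of 520 on chromosome 4, with a median GC content of 44.1%, 37 (7.12%) were upregulated and 226 (43.5%) downregulated as counted, and 41 (7.95%) and 105 (20.3%) after the correction. Zinc finger genes of chromosome 19, a family of repressors, showed 21 (10.7%) up and 38 (19.4%) down of 196 as counted, and 26 (13.3%) and 5 (2.55%) after the correction. Of 454 processed pseudogenes 16 (3.52%) were upregulated and 54 (11.9%) downregulated as counted, and 20 (4.41%) and 34 (7.49%) after the correction. Of 240 genes annotated as sense intronic 39 (16.2%) and 12 (5.0%) were called as counted, and 49 (20.4%) and 2 (0.833%) after the correction.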
